A study of Mus musculus with 12 samples.

Results

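Voltage-gated sodium (Nav), calcium (Cav) and hyperpolarization-activated (HCN) channel genes were taken from the transcriptome of the hypothalamic arcuate nucleus (ARC) by symbol, as every gene called Scn with a number and a or b, Cacna, Cacnb or Cacng with a number, Cacna2d1 to Cacna2d4, or Hcn with a number. This gave 43 of the 38283 genes in the table, with no repeated symbol. The rule reads symbols only, but it was written with earlier results of these data known. Scn2a is listed in the table under its older symbol Scn2a1, which the rule does not match, and its values are given beside the other sodium channels without being counted among the 43.

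The ARC came from male mice on the C57BL/6 strain that were fed ad libitum and were 8 weeks old. WT mice (n = 5) were compared with mice homozygous for R299Q γ2 (Homo, n = 7), which carry a point mutation knocked into both copies of Prkag2, the gene of the γ2 subunit of the energy sensor AMPK, in every cell rather than in one cell type. The nucleus was laser-captured from 14 μm cryosections, its RNA was amplified across the whole transcriptome, and 1 library was made per mouse. Levels are in FPKM, which scale the fragments on a transcript to its length and to the depth of the library. Levels set side by side between genes rest on this scaling, and effects of amplification or base composition on them were not tested. The 10 highest genes held 95.9% to 98.1% of the summed FPKM of each library.

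Nav channels open on depolarization and carry the upstroke of the action potential. Each has 1 pore-forming α subunit (Scn genes ending in a) and β subunits (Scn genes ending in b) that alter gating and surface placement. Cav channels let calcium in when the membrane depolarizes, and their α1 pores are joined by α2δ and β subunits that carry them to the membrane. Cav1 pores give long-lasting currents, Cav2 pores serve transmitter release, and Cav3 pores open near rest and support bursts. HCN channels open on hyperpolarization and pass a depolarizing current that sets pacemaking. ARC neurons that express Agrp or Pomc fire spontaneously, and all of these families shape that firing. Because the capture holds neurons and glia together, a lower level from fewer cells of a type cannot be told apart from less RNA per cell.

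The label of the tissue fitted its defining genes in all 12 libraries. Agrp ran from 181 to 597 FPKM, Npy from 514 to 1795 FPKM and Pomc from 190 to 1350 FPKM. Prkag2 was at 14.6 FPKM on average in WT and 14.8 FPKM in Homo, and since the knock-in changes 1 codon its level does not check the genotype. The libraries stood in 2 sets by how many genes were listed above 0. WT 1, WT 2 and Homo 1 to 5 (the 7-library set) had 15742 to 16467 genes above 0, and WT 3, WT 4, WT 5, Homo 6 and Homo 7 (the 5-library set) had 18141 to 18635. By a coarse estimate, 1 fragment on 1 kb of transcript was worth 0.159 to 0.319 FPKM in the first set and 0.0854 to 0.121 FPKM in the second. By this estimate low levels were read more coarsely in the first. Set and genotype are unevenly mixed, and genotype differences within the sets are given for some members. Summed markers of pituitary cells stood at 115 FPKM in WT 3, 69.2 FPKM in WT 5 and 57.4 FPKM in Homo 7, against 0.991 to 12.2 FPKM in the other 9 libraries. The mean log2(FPKM + 1) of general neuron markers was 5.72 in WT and 5.81 in Homo, and 9 of 11 of these markers were on the Homo side. All 8 oligodendrocyte markers and all 8 microglia markers had log2 differences above 0, with medians of 0.37 and 0.38, and 0 of these 16 had an adjusted p under 0.05. Of 10 markers of ARC neurons 9 were above 0, with a median of 0.43. Their summed level was lowest in WT 3, at 1313 FPKM, against 2390 to 5211 FPKM in the other libraries. WT 3 also had the lowest mean log2(FPKM + 1) of general neuron markers, at 5.33. An unadjusted p under 0.05 was found for 3 of the 10 ARC neuron, 2 of the 8 microglia and 1 of the 6 tested tanycyte and ependymal markers, and for 0 of the other lists, where 5.55% of all genes tested passed. Astrocyte markers leaned the same way in 6 of 9, endothelial markers in 5 of 7 and oligodendrocyte precursor markers in 3 of 5. The part of these markers in the channel values was not tested.

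Most of these channel genes were expressed in the ARC. Averaged over the 12 libraries, 17 stood at 10 FPKM or more, 17 between 1 and 10 FPKM and 9 under 1 FPKM. The highest of the genes under 1 FPKM was Cacna1s, at 0.352 FPKM. The 9 low genes are mostly known from other tissues. The skeletal muscle pore Scn4a and the muscle γ1 subunit Cacng1 were listed at 0 in all 12 libraries. Scn10a and Scn11a, pores of pain-sensing neurons, averaged 0.00877 and 0.253 FPKM, and Cacna1f and Cacna2d4, both retinal, averaged 0.111 and 0.0620 FPKM. Scn4b averaged 0.0574 FPKM and Cacng6 0.0383 FPKM. Cacna1s, the skeletal muscle Cav1 pore, reached 1.58 FPKM in 1 Homo library, and 20% of its exon bases are shared with an antisense gene on the other strand. Whether the counting used strand is not stated in the sources used here.

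**Figure D1:**
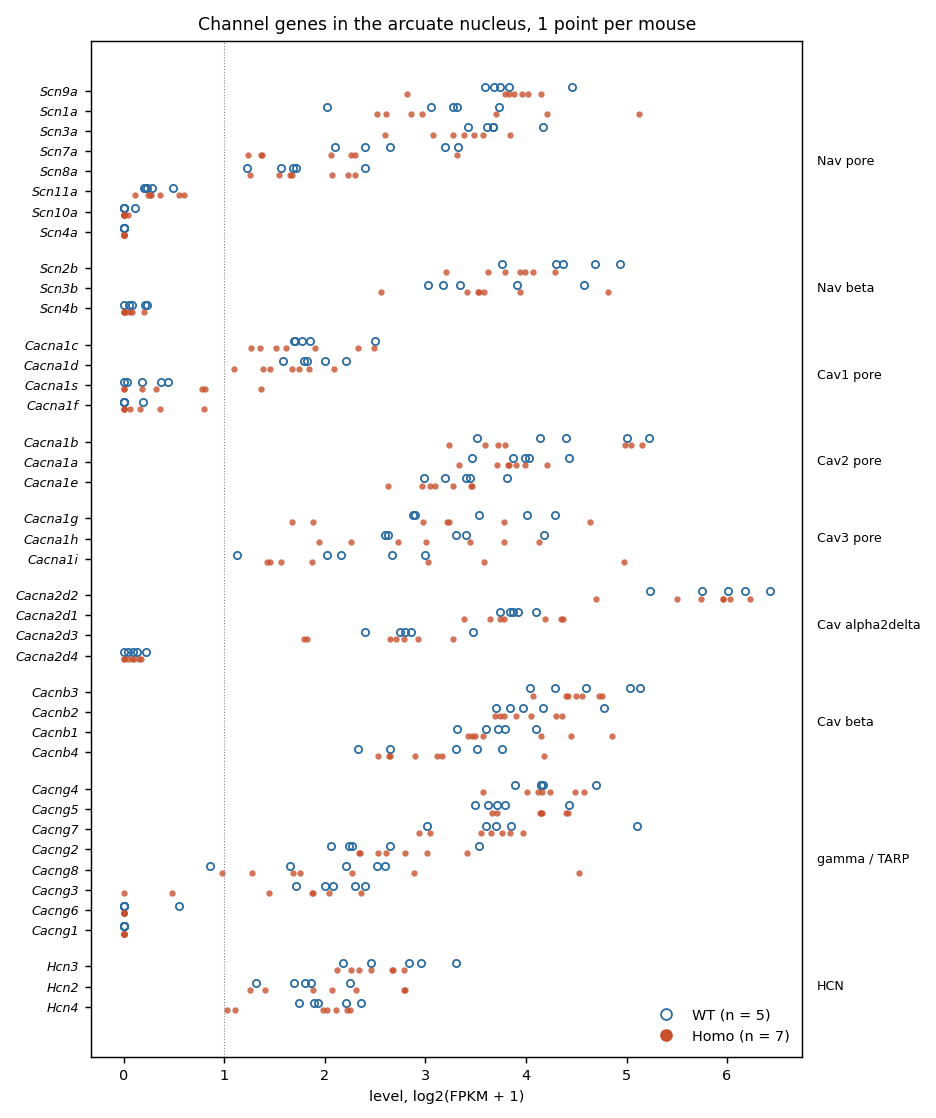
Level of 40 channel genes as log2(FPKM + 1), grouped by class, with 1 point per mouse (open blue, WT, n = 5; filled red, Homo, n = 7) and a dotted line at 1 FPKM. Cacna2d2 stands highest, with 24.9 to 85.1 FPKM, 9 genes sit near 0, and the points of the genotypes overlap in each of the 31 genes shown that were tested.

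Several members lie side by side in the genome, and near neighbours could differ widely in level. Scn2b and Scn4b lie on the plus strand of chromosome 9, 8324 bases apart (GRCm38, chr9:45117782-45130070 and chr9:45138395-45154152), and averaged 16.8 and 0.0574 FPKM. Cacng8 and Cacng6, 8546 bases apart on chromosome 7, averaged 4.63 and 0.0383 FPKM. Cacng1 was listed at 0 and its neighbour Cacng4, 15834 bases away on chromosome 11, averaged 17.6 FPKM. On chromosome 2, Scn3a, Scn1a, Scn9a and Scn7a lie in a row and averaged 10.5, 10.6, 13.5 and 4.53 FPKM.

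Promoter windows (RefSeq, GRCm38.p6, 250 bases before to 50 after the RefSeq start) were available for 31 of the 43 members. The windows of Scn2b (plus strand, chr9:45117626-45117925) and Scn4b (plus strand, chr9:45138374-45138673) are shown because they are the closest neighbours among the members and differ widely in level, with each CG pair in capitals.
Scn2b: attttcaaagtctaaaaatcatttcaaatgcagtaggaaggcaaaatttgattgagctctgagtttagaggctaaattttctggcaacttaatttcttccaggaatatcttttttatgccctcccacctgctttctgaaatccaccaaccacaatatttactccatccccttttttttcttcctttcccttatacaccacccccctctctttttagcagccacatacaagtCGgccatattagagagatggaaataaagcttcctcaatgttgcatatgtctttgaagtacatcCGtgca
Scn4b: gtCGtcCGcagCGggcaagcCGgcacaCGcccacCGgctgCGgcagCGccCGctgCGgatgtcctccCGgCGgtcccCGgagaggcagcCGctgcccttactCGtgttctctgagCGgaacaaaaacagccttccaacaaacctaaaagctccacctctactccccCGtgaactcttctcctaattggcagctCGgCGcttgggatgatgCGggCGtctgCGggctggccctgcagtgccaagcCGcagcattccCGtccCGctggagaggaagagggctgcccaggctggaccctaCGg
The window of the expressed gene, Scn2b, held 2 CG pairs, and 85.9% of the 32851 windows of all genes held as many or more. That of the barely expressed Scn4b held 26, which 16.9% of all windows reached. Across members the order ran the other way. Taking the window with most CG pairs of each gene, the median was 27.5 over 24 tested members and 8 over 7 members under 1 FPKM, against 7 over all windows. Some tested members had several windows and the members under 1 FPKM had a single one each, so this choice can raise only the tested side. The median over all windows counts every window, not the highest of each gene. Over the 31 members the rank correlation of CG pairs with mean FPKM was 0.28, given as a description since windows share base composition. CG was searched on the plus strand, and reads the same on both. Cacna2d2, the member with the highest level, had 43 CG pairs, a number that 2.61% of all windows reached.

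The question of the comparison is whether constitutive activation of γ2 AMPK is accompanied by another set of channel transcripts in the ARC. Of the 43 genes, 34 passed the filter of a mean of 1 FPKM and were tested in a limma fit across 14017 genes. No member had an adjusted p under 0.05 (limma with Benjamini-Hochberg adjustment), where 0.00713% of all genes did, that is 1 gene. At an unadjusted p under 0.05 there was 1 member, Scn2b, of 34, where 5.55% of all genes passed, so the share among the channels was no larger than the background. Scn2b was on the lower side, where 2.5% of all genes passed, and on the higher side 0 members passed, where 3.05% of all genes did. By exact permutation over the 792 ways to divide 12 mice into 5 and 7 it was again 1 member, Scn2b.

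The log2 difference, Homo minus WT on the log2(FPKM + 1) scale, was below 0 in 22 of the 34 members, against 50.7% of all genes. Its median was −0.13 over the members and −0.0062 over all genes tested. In 33 of 34 members the 95% interval of the difference included 0. On this scale, which shrinks the folds of low genes, the intervals excluded a 2-fold difference in both directions in 24 members, Cacna1a and Cacna2d1 among them, and in 19 members with a pseudocount of 0.1. They reached a 2-fold decrease in 7, among them Scn7a, Scn2b, Cacna1b, Cacna1g, Cacna1h and Cacng3, and a 2-fold increase in 3 (Scn1a, Cacna1i and Cacng8). With the pseudocount of 0.1 the interval reached a 2-fold decrease in 13 members, with Cacna1d, Cacna2d3, Cacna1i, Hcn4, Cacng7 and Cacng8 added, and a 2-fold increase in 4, with Hcn2 added. The intervals reached 0.41 to 1.26 to either side on the log2 scale with 12 libraries. They are not adjusted for the 14017 genes tested and are not limits of detection. A difference larger than these widths could also miss the adjusted threshold. Over the 34 members the mean log2(FPKM + 1) was lowest in Homo 3, at 2.70, and lay between 2.97 and 3.48 in the other 11 libraries. No member had genotypes without overlap, where 0.221% of all genes did.

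**Figure D2:**
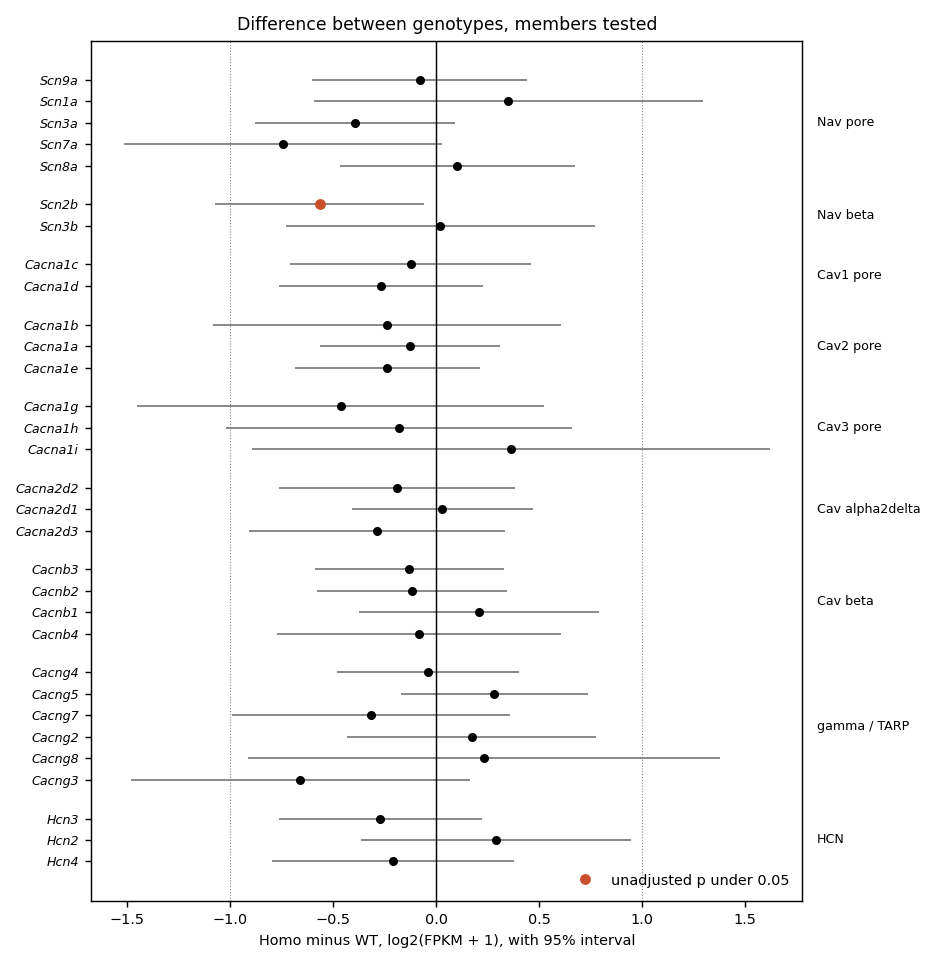
Difference between genotypes on the log2(FPKM + 1) scale (Homo minus WT) for 31 of the channel genes tested, with 95% intervals from limma over 5 WT and 7 Homo libraries and dotted lines at a 2-fold difference. Only the interval of Scn2b, in red, leaves out 0, with a difference of −0.57 and an adjusted p of 0.899.

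The Nav α subunits had a median log2 difference of −0.24, with 2 of 6 tested above 0 and 4 below, and adjusted p of 0.899 to 0.988 (limma). Scn9a, the pore Nav1.7 known from sensory neurons and also from the hypothalamus, had the highest mean of the class. It measured 11.0, 13.3, 11.8, 12.4 and 20.9 FPKM in WT 1 to 5, and in Homo the lowest, median and highest values were 6.03, 13.8 and 16.8 FPKM. WT 5 and Homo 3 stood apart at the top and bottom, and the other 10 libraries lay within 11.0 to 16.8 FPKM. The means of 13.9 ± 4.01 (SD, n = 5) and 13.2 ± 3.42 FPKM (SD, n = 7) gave a log2 difference of −0.081 (95% interval −0.60 to 0.44). Its sign turned without WT 5, to 0.067, and without Homo 3, to 0.080.

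Scn7a, which encodes the sodium-sensing channel Nax, had the smallest p among the α subunits. Its WT values were 3.30, 5.27, 8.99, 8.14 and 4.27 FPKM, and those of Homo ran from 1.36 through a median of 3.18 to 8.94 FPKM. In Homo, 6 of 7 libraries lay below the WT median, and Homo 6 lay as high as the highest WT mice. With 5.99 ± 2.47 FPKM (SD, n = 5) in WT against 3.48 ± 2.64 FPKM (SD, n = 7) in Homo, the log2 difference was −0.74 (SE 0.36, 95% interval −1.52 to 0.029, adjusted p = 0.899, limma), and the exact permutation p was 0.0770. Within the sets it was −0.71 in the 7-library set and −0.18 in the 5-library set, and the exact permutation p within sets was 0.138. The unadjusted limma p was 0.0336 without WT 1 (difference −0.90, adjusted p = 0.756) and 0.00799 without Homo 6 (−0.96, adjusted p = 0.769). It rose to 0.147 without WT 3 (−0.60) and to 0.134 without WT 4 (−0.63). Leaving out Homo 1, Homo 3 or Homo 4 also raised this limma p, to 0.105, 0.111 and 0.106. Between the sets Scn7a differed by 0.88 in favour of the 5-library set (unadjusted p = 0.0143, adjusted p = 0.436, limma). Summed tanycyte and ependymal markers, 7 genes of which 4 of the 6 tested had differences below 0, spanned 32.5 to 81.6 FPKM in the WT mice against 20.7 to 51.5 FPKM in Homo, and their part in the values of Scn7a was not tested.

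Among the remaining α subunits, Scn1a (Nav1.1, the pore of many inhibitory neurons) varied most, from 3.07 FPKM in WT 1 to 34 FPKM in Homo 5. Its means were 8.04 ± 3.32 FPKM (SD, n = 5) in WT against 12.3 ± 10.6 FPKM (SD, n = 7) in Homo, a log2 difference of 0.35 (95% interval −0.59 to 1.29). The Homo median was 6.82 FPKM, and 4 of 7 Homo libraries lay below the WT median. The difference was 0.82 in the 7-library set and −0.029 in the 5-library set. Scn3a, a pore most abundant around birth, averaged 12.3 ± 2.78 FPKM (SD, n = 5) in WT against 9.27 ± 2.63 FPKM (SD, n = 7) in Homo, a log2 difference of −0.39 (95% interval −0.88 to 0.091), which was −0.23 in the 7-library set and −0.49 in the 5-library set. Scn8a (Nav1.6) was at 2.41 FPKM in WT and 2.64 FPKM for Homo. Scn2a1, the gene of Nav1.2, was higher on average than the counted α subunits named above, with 19.0 ± 3.11 FPKM (SD, n = 5) in WT against 18.3 ± 5.91 FPKM (SD, n = 7) in Homo and a log2 difference of −0.11. With it included, it made up 29.7% of all Nav α FPKM in WT and 29.9% in Homo.

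Scn2b was the only member past an unadjusted p of 0.05. It encodes β2, which is linked to the α subunit by a disulfide bond and also acts in cell adhesion. Its values were 18.7, 12.5, 24.8, 19.6 and 29.7 FPKM in WT 1 to 5, and 8.20, 14.4 and 18.5 FPKM as the lowest, median and highest of Homo. All 7 Homo libraries lay below the WT median, but they overlapped with WT 2, the lowest WT mouse, and none of them was as high as the other 4 WT mice. The means were 21.1 ± 6.49 FPKM (SD, n = 5) in WT against 13.7 ± 3.34 FPKM (SD, n = 7) in Homo, a ratio of 0.651. The log2 difference was −0.57 (SE 0.24, 95% interval −1.07 to −0.062, unadjusted p = 0.0304, adjusted p = 0.899, limma), and the exact permutation p was 0.0341. It did not pass the adjusted threshold in any fit.

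Scn2b also moved with the library set, by 0.50 in favour of the 5-library set (unadjusted p = 0.0385, limma), which holds 3 of 5 WT and 2 of 7 Homo mice. Within the sets the difference between genotypes was −0.30 (7-library set) and −0.55 (5-library set). With the set in the model it was −0.41 (unadjusted p = 0.0799, limma), and the exact permutation p within sets was 0.0714. Leaving out 1 library took the unadjusted limma p to 0.0733 without WT 3, 0.0960 without WT 5, 0.0527 without Homo 2 and 0.0554 without Homo 3. The difference stayed below 0 in all 23 other fits.

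Scn3b, the gene of β3, averaged 12.2 ± 6.48 FPKM (SD, n = 5) in WT against 12.6 ± 6.99 FPKM (SD, n = 7) in Homo, a log2 difference of 0.020 (95% interval −0.73 to 0.77) that turned to −0.18 without Homo 1. As a share of the summed β subunit FPKM, Scn2b made up 43.8% ± 10.8 (SD, n = 5) in WT against 31.8% ± 5.25 (SD, n = 7) in Homo, and it was the highest of the β subunits in 3 of 5 WT and 1 of 7 Homo libraries. These shares rest on the same values as the difference of Scn2b and were not tested.

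**Figure D3:**
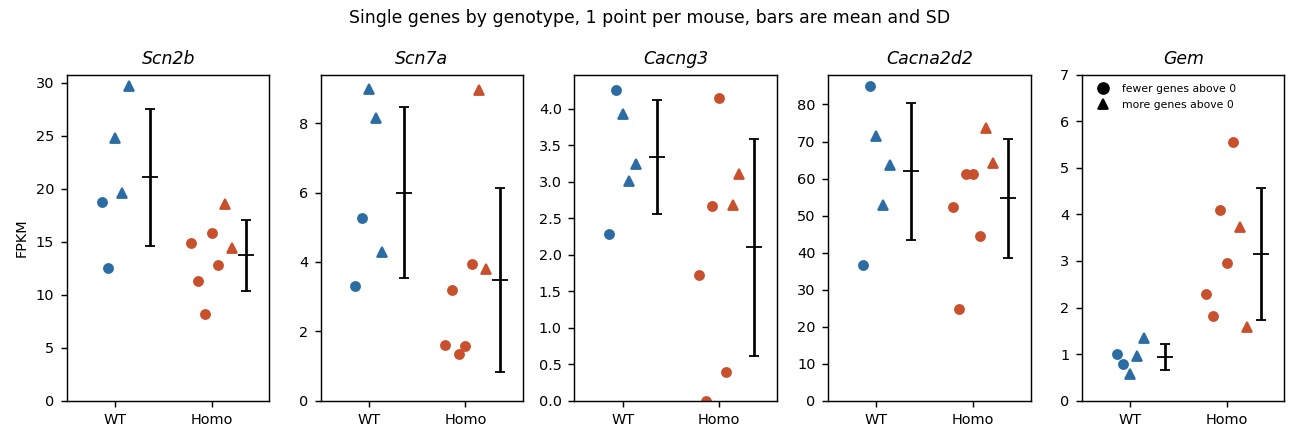
FPKM of 4 channel genes and of Gem, a partner of the Cav β subunits, in WT (blue) and Homo (red), with 1 point per mouse and the mean with SD beside the points; circles are libraries with fewer genes above 0 and triangles those with more. Scn2b, Scn7a, Cacng3 and Cacna2d2 overlap between genotypes, and the Gem values of Homo (1.59 to 5.56 FPKM) all lie above those of WT (0.566 to 1.34 FPKM). No overlap was seen in 0.221% of all genes tested. Gem was chosen by its p from 27 tested partners and passed the filter of 1 FPKM only through Homo. Its adjusted p was 0.666 (limma).

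Cav1 pores were expressed at low levels. Cacna1c (Cav1.2), the commoner by a little, was at 2.61, 2.23, 2.43, 2.27 and 4.66 FPKM in WT 1 to 5 and at 1.40, 2.05 and 4.63 FPKM as the lowest, median and highest of Homo. The genotypes overlapped throughout, and WT 5 stood apart. The log2 difference was −0.12 (95% interval −0.71 to 0.46), and without WT 5 it was 0.024. Cacna1d (Cav1.3), a pore that opens at more negative voltages and takes part in pacemaking, was at 2.00, 3.01, 2.45, 2.54 and 3.63 FPKM in WT, with a lowest, median and highest of 1.14, 2.2 and 3.27 FPKM in Homo. In Homo, 5 of 7 libraries lay below the WT median, with a log2 difference of −0.27 (95% interval −0.76 to 0.23, adjusted p = 0.919, limma). It was −0.29 in the 7-library set and −0.055 in the 5-library set. Cacna1c was the highest of the class in 6 libraries and Cacna1d in the other 6.

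Cav2 pores were several times more abundant than Cav1 pores, with a summed level of 47.3 ± 14.6 FPKM (SD, n = 5) in WT and 41.6 ± 13.0 FPKM (SD, n = 7) for Homo. The summed Cav1 level was 5.75 ± 1.65 FPKM (SD, n = 5) in WT and 5.39 ± 2.13 FPKM (SD, n = 7) for Homo. Cacna1b, the N-type pore Cav2.2, led the class in 9 of 12 libraries. It was at 31.2, 36.4, 20.1, 10.4 and 16.6 FPKM in WT, with a lowest, median and highest of 8.40, 12.9 and 34.5 FPKM in Homo. Its log2 difference between library sets was larger than that between genotypes. In the 7-library set its values ran from 11.0 to 36.4 FPKM, with a median of 31.2 FPKM, and in the 5-library set from 8.40 to 20.1 FPKM, with a median of 12.9 FPKM. The set difference was −1.04 (unadjusted p = 0.00675, adjusted p = 0.361, limma). The genotype difference was −0.24 (95% interval −1.09 to 0.61) over all libraries, and −0.62 and −0.50 within the 7-library and 5-library sets, with an exact permutation p within sets of 0.129.

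Cacna1e, the R-type pore Cav2.3, had the smallest p of the Cav2 class. It was at 8.17, 9.87, 9.56, 6.91 and 13.1 FPKM in WT, and in Homo it ran from 5.16 through a median of 7.55 to 10 FPKM. The groups overlapped, with 5 of 7 Homo mice below the WT median, and the log2 difference was −0.24 (95% interval −0.69 to 0.21), with −0.28 in the 7-library set and −0.033 in the 5-library set. Cacna1a, the P/Q-type pore, averaged 14.9 ± 3.76 FPKM (SD, n = 5) in WT against 13.4 ± 2.59 FPKM (SD, n = 7) in Homo. Its log2 difference was −0.13 (95% interval −0.56 to 0.31), and 6 of 7 Homo libraries lay below the WT median. All 3 Cav2 pores thus had differences below 0, of −0.13 to −0.24, with adjusted p of 0.919 to 0.962 (limma).

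The T-type Cav3 pores were the most variable class. Cacna1g (Cav3.1) was at 18.5, 15.1, 6.44, 10.6 and 6.36 FPKM in WT, with a lowest, median and highest of 2.19, 8.31 and 23.9 FPKM in Homo, which held both the lowest and the highest mouse. The log2 difference was −0.46 (95% interval −1.45 to 0.52). It was −0.89 in the 7-library set and −0.55 in the 5-library set, and −0.73 with the set in the model. Cacna1h (Cav3.2) ran from 2.85 to 17.1 FPKM, and Cacna1i (Cav3.3) from 1.19 FPKM in WT 2 to 30.5 FPKM in Homo 2. The log2 difference of Cacna1i was 1.32 in the 7-library set and −0.89 in the 5-library set (unadjusted p = 0.0362, limma), against 0.36 over all libraries. The fit of the 5-library set held 3 WT and 2 Homo mice. In it 1 of 34 members had an unadjusted p under 0.05, where 710 of the 14017 genes tested did. The SD of Cacna1i within genotypes, 1.15 on the log2 scale, was the largest among the 34 members, whose median was 0.48, against 0.52 for all genes tested. No single Cav3 pore led throughout, and Cacna1g, Cacna1h and Cacna1i were the highest of their class in 5, 5 and 2 libraries.

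Among the accessory α2δ subunits, Cacna2d2 was by far the most abundant, and it was the highest of its class in all 12 libraries. α2δ-2 carries Cav2 and other pores to the surface, and α2δ-1 and α2δ-2 bind gabapentin. Cacna2d2 was at 36.6, 85.1, 71.4, 52.9 and 63.6 FPKM in WT, with a lowest, median and highest of 24.9, 61.3 and 73.8 FPKM in Homo. The genotypes overlapped over most of their range, and the log2 difference was −0.19 (95% interval −0.76 to 0.38). It made up 73.9% ± 8.08 of the α2δ FPKM (SD, n = 5) in WT against 72.4% ± 6.70 (SD, n = 7) in Homo. Cacna2d3 was at 10.1, 5.93, 4.27, 6.27 and 5.70 FPKM in WT, with a lowest, median and highest of 2.46, 5.53 and 8.68 FPKM in Homo. Its log2 difference was −0.29 (95% interval −0.91 to 0.33, adjusted p = 0.923, limma), and it was −0.64 in the 7-library set and 0.082 in the 5-library set. Cacna2d1 averaged 13.9 ± 1.40 FPKM (SD, n = 5) in WT against 14.6 ± 4.09 FPKM (SD, n = 7) in Homo.

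The cytoplasmic Cav β subunits were all expressed, and Cacnb3 led in 9 of 12 libraries. Cacnb3 was at 31.7, 34.1, 15.5, 18.6 and 23.2 FPKM in WT, with a lowest, median and highest of 15.8, 21.5 and 26.1 FPKM in Homo. All Homo values lay inside the range of WT, and the log2 difference was −0.13 (95% interval −0.59 to 0.33). It ranged from −0.28 without WT 3 to −0.0024 without WT 2. It was −0.29 with the set in the model, −0.51 in the 7-library set (unadjusted p = 0.0588, limma) and −0.031 in the 5-library set. Like Cacna1b, Cacnb3 was lower in the 5-library set, by a log2 difference of −0.51 (unadjusted p = 0.0159, adjusted p = 0.450, limma). Cacnb2, by contrast, was higher there by 0.51 (unadjusted p = 0.0160, adjusted p = 0.450, limma). Cacnb1, with the smallest p of the class, was at 16.1, 11.2, 12.2, 8.98 and 12.9 FPKM in WT, with a lowest, median and highest of 9.72, 10.9 and 27.9 FPKM in Homo. Its highest values were in Homo 1 and Homo 2, and the log2 difference was 0.21 (95% interval −0.38 to 0.79, adjusted p = 0.940, limma). Without Homo 1 it was 0.051, without Homo 2 0.12 and without WT 4 0.11. Cacnb4 averaged 8.23 ± 3.56 FPKM (SD, n = 5) in WT against 7.79 ± 4.32 FPKM (SD, n = 7) in Homo, and 16.0% of its exon bases are shared with a transcript on the other strand.

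**Figure D4:**
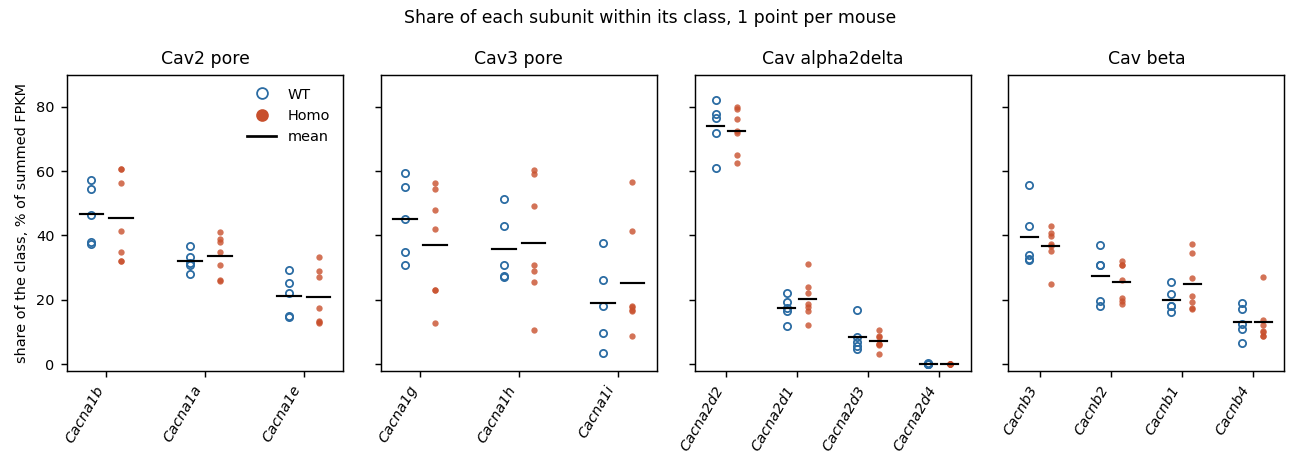
Share of each Cav2, Cav3, α2δ and β subunit in the summed FPKM of its class (y axis, %), with 1 point per mouse (open blue, WT, n = 5; filled red, Homo, n = 7) and the mean as a bar. Cacna2d2 holds 61.0% to 82.2% of the α2δ subunits in every mouse, while the leading Cav3 pore changes from mouse to mouse.

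The Cacng genes comprise the muscle γ subunits and the neuronal TARPs, which traffic AMPA-type glutamate receptors more than they act on calcium channels. Cacng4 (TARP γ4) had the highest mean, with 16.9, 13.9, 16.7, 16.7 and 24.9 FPKM in WT, and a lowest, median and highest of 10.9, 16.9 and 22.9 FPKM in Homo. WT 5 lay above all other mice, and the log2 difference was −0.042 (95% interval −0.48 to 0.40). Cacng3 (TARP γ3) had the smallest p of the class. It was at 2.28, 4.26, 3.93, 3.01 and 3.24 FPKM in WT, and in Homo it was listed at 0 in Homo 2, with a median of 2.67 and a highest value of 4.15 FPKM. In all, 6 of 7 Homo mice were below the WT median, and the log2 difference was −0.66 (95% interval −1.48 to 0.16, adjusted p = 0.915, limma), with an exact permutation p of 0.154. Both Homo libraries at 0.394 FPKM or less, Homo 2 and Homo 5, belonged to the 7-library set, and the difference was −0.82 there and −0.17 in the 5-library set. Cacng2, the gene of stargazin, lay above the WT median in all 7 Homo libraries, and its log2 difference was 0.17 (95% interval −0.43 to 0.78), with WT 5 as the highest mouse of all.

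Cacng5 averaged 13.4 ± 4.09 FPKM (SD, n = 5) in WT against 16.3 ± 3.44 FPKM (SD, n = 7) in Homo. Cacng7 averaged 15.4 ± 10.4 and 11.0 ± 3.03 FPKM (SD, n = 5 and 7), with WT 2 alone at 33.5 FPKM. Its log2 difference was −1.01 in the 7-library set and 0.41 in the 5-library set. Of the 34 members, Cacng7 alone had an unadjusted p under 0.05 for the change of its difference from set to set (adjusted p = 0.876, limma interaction term), where 5.18% of all genes did, and 0 members had an adjusted p under 0.05, where 0.0428% did. Cacng8 ran from 0.810 to 22.1 FPKM, the latter in Homo 1.

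The HCN genes had a median log2 difference of −0.066, with 2 of 4 above 0 and 2 below. Hcn3 had the smallest p among the HCN genes. It was at 6.14, 8.85, 3.54, 4.50 and 6.77 FPKM in WT, with a lowest, median and highest of 3.34, 4.51 and 5.92 FPKM in Homo. All 7 Homo values were under the WT median, and the log2 difference was −0.27 (95% interval −0.77 to 0.22, adjusted p = 0.919, limma). It was −0.61 in the 7-library set and −0.021 in the 5-library set. Exon bases that Hcn3 shares with Pklr on the other strand make up 17.1% of its length. Hcn2 averaged 2.52 ± 0.817 FPKM (SD, n = 5) in WT against 3.53 ± 1.85 FPKM (SD, n = 7) in Homo, and Hcn4 averaged 3.13 ± 0.727 and 2.71 ± 1.14 FPKM (SD, n = 5 and 7).

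More channel genes passed an unadjusted p of 0.05 between the library sets than between genotypes (limma). The same held over all 14017 genes tested, with 1180 against 778, the latter from the fit without the set. Between the sets 5 of 34 members had an unadjusted p under 0.05, where 8.42% of all genes did. At an adjusted p under 0.05 there were 0 members, where 0.178% of all genes passed (limma with genotype in the model). Cacna1b and Cacnb3 were lower, and Scn7a, Cacnb2 and Scn2b higher, in the 5-library set. The difference between the sets ran against the GC content of the transcript, with a rank correlation of −0.56 over the 34 members, where it was −0.19 over 13672 genes tested with a sequence. Members share libraries and families, so the correlation is a description. The genotype difference had a rank correlation of 0.15 with GC content over the same members. With the set in the model 0 members had an unadjusted p under 0.05, where 4.78% of all genes did. Within the sets, 24 of 34 members had differences below 0 in the 7-library set, where 57.1% of all genes did, and 19 of 34 in the 5-library set, where 33.7% did.

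**Figure D5:**
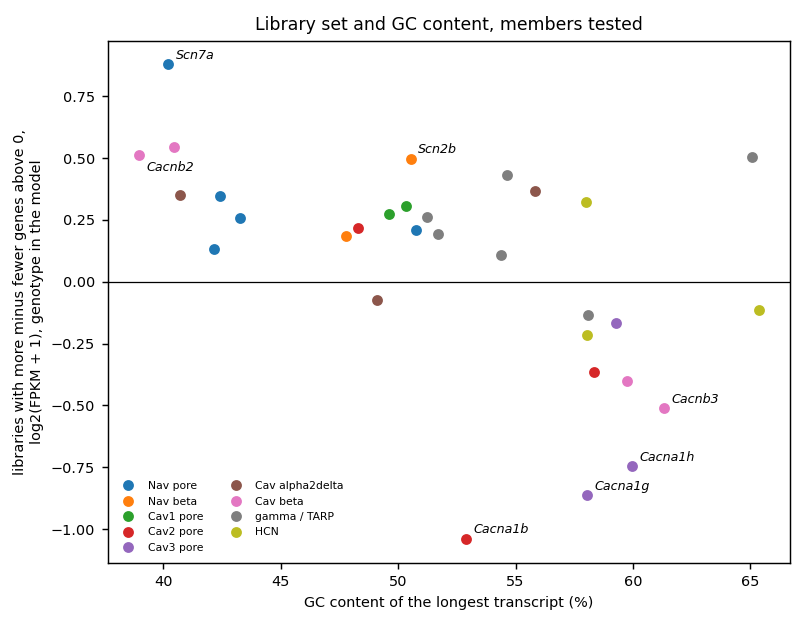
Difference between the libraries with more (n = 5) and fewer (n = 7) genes above 0 on the log2(FPKM + 1) scale, with genotype in the model, against the GC content of the longest transcript (%) for 31 of the channel genes tested, coloured by class. Some GC-rich genes such as Cacnb3 lie lower and some GC-poor genes such as Scn7a and Cacnb2 higher. Others go the other way, such as Cacng8 (65.1% GC, difference 0.50) and Hcn4 (58.0% GC, 0.32). Cacna1b, with the largest difference (−1.04), has 52.9% GC. The 5 genes with an unadjusted p under 0.05 are labelled, along with Cacna1g and Cacna1h.

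Genes that bind or regulate these channels were described from a list of 32, of which 31 were in the table and 27 were tested. The log2 difference was above 0 in 11 and below 0 in 16, with a median of −0.014, and none had an adjusted p under 0.05. The sodium leak channel Nalcn averaged 12.6 ± 2.19 FPKM (SD, n = 5) in WT against 10.5 ± 1.47 FPKM (SD, n = 7) in Homo, a log2 difference of −0.24 (95% interval −0.61 to 0.14). Ank3, which anchors Nav channels at the axon initial segment, averaged 34.6 and 35.8 FPKM, and Pex5l, a partner of HCN channels, averaged 9.44 and 7.39 FPKM in WT and Homo.

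Gem was the 1 partner of 27 with an unadjusted p under 0.05, a share no larger than the 5.55% of all genes tested. Its mean in WT was under the filter of 1 FPKM, so it was tested only because of its level in Homo, and its p was chosen from 27. It encodes a small GTPase of the RGK family that binds Cav β subunits and reduces calcium current. Gem was at 1.01, 0.794, 0.566, 0.966 and 1.34 FPKM in WT and at 1.59, 2.96 and 5.56 FPKM as the lowest, median and highest of Homo. Every Homo library lay above every WT library, a separation that 0.221% of all genes showed. The means of 0.936 ± 0.286 FPKM (SD, n = 5) and 3.15 ± 1.41 FPKM (SD, n = 7) gave a log2 difference of 1.04 (SE 0.27, 95% interval 0.46 to 1.62, unadjusted p = 0.00169, adjusted p = 0.666, limma). The exact permutation p was 0.00379 over all splits and 0.00476 within the sets, which is the smallest the latter can give. These p-values and the separation rest on the values by which Gem was picked, so they are descriptions only. The differences were 1.13 in the 7-library set and 0.86 in the 5-library set. Levels of Gem were low, in libraries where 1 fragment per kb is worth up to 0.319 FPKM by a coarse estimate. The other tested genes of the family were at 1.63 and 1.85 FPKM for Rem2 and at 8.29 and 7.88 FPKM for Rrad in WT and Homo, with log2 differences of −0.011 and 0.059.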

How the data were processed

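RNA from laser-captured ARC of 5 WT and 7 Homo mice was sequenced, and the authors deposited 1 table of FPKM for 38283 genes. The submitters' processing notes name TopHat2 2.0.8, Cufflinks 2.2.1 and GRCm38; the annotation and the strand setting are not given in the sources used here. No reads were counted here. Depth was estimated coarsely, from the commonest low value of FPKM times length among genes with a single transcript. Columns were matched to mice by label, with an extra letter in those of Homo 4 and Homo 5, and 0 columns were left over. FPKM are not counts, so the unscaled values entered the model as log2(FPKM + 1). The fit covered 14017 genes averaging 1 FPKM or more and used limma 3.58.1 under R 4.3.3 (trend, robust, genotype as the only term, Benjamini-Hochberg). A fold change on this scale understates that of low genes. Single genes were also tested by two-sided exact permutation, whose smallest p is 0.00126 over 792 splits and 0.00476 over 210 rearrangements within library sets. The sets were divided where libraries, ordered by genes above 0, lie farthest apart; no label names them as a batch. Counts of Homo libraries above or below the WT median were not set against all genes and are descriptions. The limma script was tested on simulated data.

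The members, the gene lists and the library sets were chosen with earlier results of these data known. Members named with their library values are, in each class, the one with the highest mean and the one with the smallest p, plus any with an unadjusted p under 0.05; others are given as means, ranges or counts, and where one is singled out it was chosen after its values were seen. Positions and transcript sequences are from GENCODE mouse release 21 on GRCm38, promoter windows from RefSeq. Alternatives were another pseudocount and filter, other scalings, array weights, the library set, each library left out, and the replicate number as a block. Replicates are separate mice. Values of 3 members stay in the fits and counts but are not reported here or plotted.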

Additional observations from a re-analysis of the deposited data

Results flagged for a closer look

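In each of the 34 channel genes tested, a library was picked out where its gap to the nearest library of its genotype was large for the range of that genotype (Dixon's test at 95%). This happened in 14 of 68 groups (20.6%), and 13 of them are described here. The test's nominal level gives about 3.4, but 14.4% of the groups over all genes tested met the same limit, and the members share libraries, so nothing particular to the channels is read from the count.

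WT 5 was the high library in 6 of these, with Scn9a at 20.9 FPKM (next highest 13.3), Scn3a at 17.0 (11.7), Cacna1c at 4.66 (2.61), Cacng4 at 24.9 (16.9), Cacng5 at 20.5 (12.9) and Cacng2 at 10.6 (5.26). It was the highest of the 5 WT libraries in 41.2% of the members tested and in 27.7% of all genes tested. Without WT 5 the log2 difference between genotypes was 0.067 for Scn9a, −0.28 for Scn3a, 0.024 for Cacna1c, 0.080 for Cacng4, 0.44 for Cacng5 and 0.42 for Cacng2.

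In Homo, Homo 1 was high for Scn3b at 27.1 FPKM (next 14.3) and Cacng8 at 22.1 (6.39), Homo 2 for Cacna1i at 30.5 (11.0), Homo 6 for Scn7a at 8.94 (3.93) and Homo 7 for Cacnb4 at 17.2 (7.99). Homo 3 was low for Scn9a at 6.03 FPKM, with the next at 12.9. Homo 3 was the lowest Homo library in 47.1% of the members and in 30.3% of all genes tested. WT 2 was high for Cacng7 at 33.5 FPKM (13.5), and without it the log2 difference of Cacng7 was −0.0060 in place of −0.32. Without Homo 2 that of Cacna1i was −0.039 in place of 0.36, without Homo 1 that of Cacng8 was −0.16 in place of 0.23, and without Homo 6 that of Scn7a was −0.96 in place of −0.74. Without Homo 1 that of Scn3b was −0.18 in place of 0.020, and without Homo 7 that of Cacnb4 was −0.28 in place of −0.085.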

How the results depend on the processing

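The count of members with an adjusted p under 0.05 was 0 in the fit reported and in all 23 others. The median log2 difference of the members lay between −0.19 (7-library set alone) and −0.030 (5-library set alone). That of all genes tested was −0.081 and 0.13 in these fits. With 1 library left out the members' median lay between −0.18 (without Homo 1) and −0.055 (without WT 2). That of all genes was −0.014 and 0.0086 there. The count at an unadjusted p under 0.05 was 1, where 778 of the 14017 genes tested passed. With 1 library left out it was 0 to 2, where 607 to 890 of all genes passed. With the library set as a covariate it was 0, where 670 of all genes passed. It was 2 with the replicate number as a block over WT 1 to 5 and Homo 1 to 5, where 970 passed. In these 10 libraries without that term, a fit added after the data were seen, it was also 2, where 973 passed. In both fits the number over all genes was thus higher too. The second gene in both was Scn7a, at −1.06 (unadjusted p = 0.0193 with the block and 0.00636 without it, adjusted p = 0.675 and 0.549, limma). Deviations of same-numbered mice had correlations of −0.054 to 0.029 over 5 pairs. The library set was left in these values, and WT 3 to 5 and Homo 3 to 5 stand in different sets. The correlations therefore cannot show whether the numbers pair mice. Partner genes at an unadjusted p under 0.05 numbered 2 under quantile normalization, where 920 of all genes passed. They numbered 0 in the libraries with more genes above 0 alone, where 710 passed, and 2 in the 10 libraries without the block term, where 973 passed. Of 16 named members, 9 kept their sign in all fits and 7 did not. Scn9a was at 0.028 with the library set as a covariate, 0.13 in the libraries with more genes above 0 and 0.017 with array weights, and ran from −0.15 to 0.080 with 1 library left out. In the libraries with more genes above 0, Cacna2d2 was at 0.14, Cacnb1 at −0.079, Cacna2d3 at 0.082 and Cacna1c at 0.057. Cacng4 was at 0.15 in those with fewer, and from −0.12 to 0.080 with 1 library left out (0.058 without Homo 5). Cacna1c ran from −0.24 to 0.024 with 1 left out, and Cacna1b was at 0.043 with the replicate block and without it. The cause of these turns was not tested. In the libraries with fewer genes above 0, 1 fragment per kb was worth up to 0.319 FPKM by a coarse estimate.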
